A study of Mus musculus with 8 samples.

Results

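Ribosome biogenesis factors are the proteins that transcribe, cut, modify and fold ribosomal RNA and assemble it with ribosomal proteins. A set of 36 such genes, named by symbol and mapped through GENCODE M21 to Ensembl IDs, was followed in 8 mouse mammary tumours. All 36 matched exactly 1 of the 50143 gene IDs counted by RNA sequencing. The genes were named for their function and not for how they moved in a chosen contrast, although earlier results of these data were known.

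Of the 8 tumours, 4 grew in obese mice, on a diet with 60% of calories from fat (5.1 kcal/g), and 4 in lean mice, on a regular diet with 10% (3.6 kcal/g). All mice were C57BL/6 females, whose ovaries were removed when they were 6 weeks old, with the diets starting 2 weeks after surgery and running 6 weeks before the cells were injected. Mean weight gain on the high-fat diet was 35%. Both groups carried tumours of the same line, Py230, a mouse breast adenocarcinoma cell line placed in mammary gland 4, and tumours were taken on day 56. Because every tumour came from 1 cell line and the labels do not tie each tumour to its own mouse, p-values measure the spread between these tumours only.

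Total counts ran from 25738356 to 66715063 in obese tumours and from 38963718 to 53749666 in lean tumours, and the lowest count of any member in any tumour was 906. Levels are in CPM, counts scaled to a common library size with TMM factors, and changes are log2 fold changes, obese minus lean, ± SE. The labelled epithelial cell type was checked on 12 mammary epithelial markers, whose summed level was 66.3, 288, 908 and 251 CPM in obese replicates 1 to 4, against 3373, 2234.5, 2719.8 and 2628.5 CPM in lean replicates 1 to 4. Krt5, Krt14, Cldn3, Cldn4 and Cldn7 were at 0 counts in obese replicate 1 (named after their values were seen). Obese replicate 3 was the highest obese tumour for this sum, and it and lean replicate 2 had the lowest limma sample quality weights, 0.302 and 0.290. The main counts are therefore also given without obese replicate 3. In whole tumours, fewer cells of a type and less RNA per cell cannot be told apart.

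A ribosome is built in the nucleolus. RNA polymerase I makes a long precursor RNA, small nucleolar ribonucleoproteins (snoRNPs) guide its chemical modification, and large assemblies cut and fold it into the small and the large subunit. MYC is a known activator of many of these genes, and rapidly growing cells are known for high levels of them.

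RNA of nearly all of these factors was more abundant in tumours of obese mice. Of the 36 members, all of which passed the low-count filter, 34 were higher and 0 lower in obese tumours at an adjusted p under 0.05, while of all 14887 tested genes 59.2% were called, 30.9% higher and 28.4% lower (edgeR quasi-likelihood test, Benjamini-Hochberg over all tested genes). The members' median log2 change was 1.33 beside −0.04 over all tested genes, and the single values ran from −0.18 to 2.39. A called rise of at least 2-fold was seen for 26 members, beside 17.2% of tested genes. The values of all 4 obese tumours lay above all 4 lean values for 33 members, beside 28.9% of tested genes. Without obese replicate 3 the counts were 34 higher and 0 lower with a median of 1.39, beside 31.1% of tested genes higher and 33.6% lower. With upper quartile factors 32 members were higher and 0 lower, beside 24.3% and 34.6% of tested genes. Only Rrn3 and Nop10 did not pass in the full set.

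**Figure D1:**
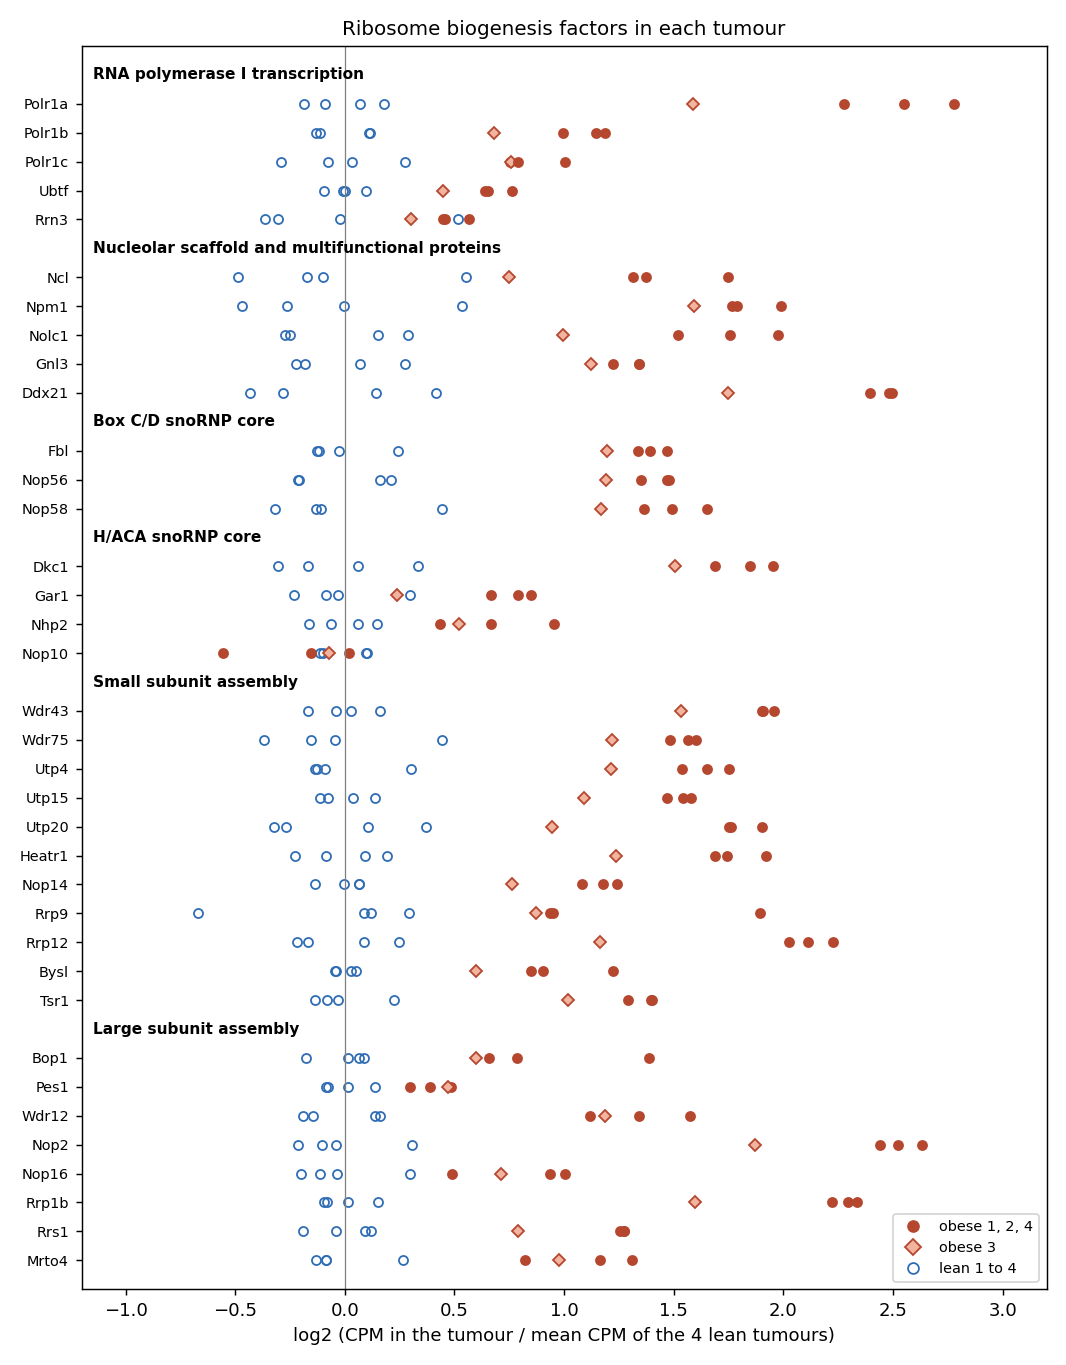
Level of each of the 36 members in each tumour as log2 of its CPM over the mean CPM of the 4 lean tumours, grouped by role, with obese tumours filled (replicate 3 as a pale diamond) and lean tumours open. The obese points lie right of the lean points for 33 members, with overlap for Rrn3, Gar1 and Nop10, and obese replicate 3 is the lowest obese tumour for 29 members.

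The summed level of the 36 members was 9676, 9210.0, 7192 and 10568 CPM in obese replicates 1 to 4, against 3609, 4245, 3180.2 and 2930 CPM in lean replicates 1 to 4. The groups did not overlap, and lean replicate 2 came nearest to the obese tumours. Npm1 and Ncl alone made up a large part of these sums. Per kilobase of the principal transcript, Npm1 was the most abundant member in both groups, at 965 CPM per kb in obese and 279 CPM per kb in lean tumours. Utp20 was the least abundant on that scale, at 14.2 CPM per kb in obese and 4.59 CPM per kb in lean tumours.

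Among genes of RNA polymerase I transcription, 4 of 5 rose and 0 fell, and the catalytic subunit gene stood far above the others in its change. Polr1a, which encodes that subunit (ENSMUSG00000049553, chromosome 6, 71909053 to 71984935, GRCm38), stood at 265, 219, 136 and 309.9 CPM in obese replicates 1 to 4, against 47.5, 51.2, 42.5 and 39.8 CPM in lean replicates 1 to 4. Its log2 change was 2.36 ± 0.25 (edgeR adjusted p = 0.000354), or 2.56 without obese replicate 3. The lowest obese tumour was still well above the highest lean tumour.

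Polr1b, the second-largest subunit of the enzyme, stood at 92.6, 83.4, 67.0 and 95.4 CPM in obese tumours, against 45.3, 45.2, 38.2 and 38.7 CPM in lean tumours (log2 change 1.01 ± 0.14). Polr1c, a subunit shared with RNA polymerase III, stood at 115 ± 9.95 CPM in obese and 64.5 ± 10.6 CPM in lean tumours (SD, n = 4 each), a change of 0.83 ± 0.14. Ubtf, the factor that bends ribosomal DNA at the polymerase I promoter, stood at 289.7 ± 25.6 CPM in obese and 187 ± 10.4 CPM in lean tumours, a change of 0.63 ± 0.11. These 3 genes rose without overlap between the groups.

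Rrn3, which links the polymerase to the promoter factors, stood at 76.8, 76.5, 69.0 and 82.9 CPM in obese tumours, against 45.3, 80.1, 55.1 and 43.5 CPM in lean tumours. Lean replicate 2 reached the obese range, and the other lean tumours lay below it. The log2 change was 0.45 ± 0.20 and did not pass (edgeR adjusted p = 0.0855). Without lean replicate 2 it was 0.67 and passed (edgeR adjusted p = 0.00454).

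All 5 nucleolar scaffold and multifunctional proteins rose, with a median log2 change of 1.61. Npm1, the nucleophosmin gene, whose product organises the granular part of the nucleolus (ENSMUSG00000057113, chromosome 11, 33152287 to 33163206), stood at 1548, 1573, 1375 and 1806 CPM in obese tumours, against 454, 659.6, 379 and 329 CPM in lean tumours. Its change was 1.79 ± 0.23 (edgeR adjusted p = 0.000711). Even the lowest obese tumour lay far above lean replicate 2, the highest of the lean group. Nucleophosmin has many processed pseudogenes. Of 12 annotated pseudogenes with an alignment to its transcript, 9 are in the count table, and all of these were at 0 counts. Of the other members with such pseudogenes, Nolc1 had the most counts there, 1.66% of its own count.

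Ncl, the nucleolin gene (ENSMUSG00000026234, chromosome 1, 86344719 to 86359400), stood at 1834, 1909, 1239 and 2473 CPM in obese tumours, against 689, 1079.6, 653 and 526 CPM in lean tumours. The change was 1.34 ± 0.28 (edgeR adjusted p = 0.00520), and obese replicate 3 and lean replicate 2 lay close to each other. Ddx21, an RNA helicase that binds ribosomal RNA and snoRNAs, stood at 582, 543, 347 and 577 CPM in obese tumours, against 114, 138, 84.9 and 76.6 CPM in lean tumours. Its change of 2.31 ± 0.25 (edgeR adjusted p = 0.000384) was the third-largest of the members. Nolc1, a chaperone of snoRNPs, rose by 1.61 ± 0.23, and Gnl3, the nucleostemin gene, by 1.26 ± 0.14. Nolc1 averaged 294 ± 79.7 CPM in obese and 96.5 ± 19.1 CPM in lean tumours, and Gnl3 214 ± 15.5 CPM in obese and 89.5 ± 14.6 CPM in lean tumours.

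The members include 3 core protein genes of the box C/D snoRNP, the particle that guides methylation of ribosomal RNA, and all 3 rose. Fbl, the methyltransferase fibrillarin, stood at 76.1, 83.3, 68.8 and 79.02 CPM in obese tumours, against 35.5, 29.5, 27.5 and 27.8 CPM in lean tumours (log2 change 1.35 ± 0.13, edgeR adjusted p = 0.000273). Nop56 averaged 256 ± 23.2 CPM in obese and 98.5 ± 15.6 CPM in lean tumours, a change of 1.38 ± 0.14. Nop58 averaged 309.7 ± 43.7 CPM in obese and 115 ± 28.3 CPM in lean tumours, a change of 1.43 ± 0.19. Both encode paired scaffold proteins of the particle. The 3 changes were close to each other in this fit but not with GC and length offsets, where they were 1.89 for Fbl, 1.82 for Nop56 and 1.41 for Nop58.

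Genes of the H/ACA snoRNP, which guides conversion of uridine to pseudouridine, had unequal changes. Dkc1, the pseudouridine synthase dyskerin (ENSMUSG00000031403, chromosome X, 75095854 to 75109777), stood at 190.0, 169.8, 149.7 and 204 CPM in obese tumours, against 54.9, 66.4, 46.9 and 42.6 CPM in lean tumours. It rose by 1.76 ± 0.17 (edgeR adjusted p = 0.000288) with the groups well apart. Nhp2 stood at 235, 164, 174 and 193 CPM in obese tumours, against 134, 108, 126 and 116 CPM in lean tumours, and rose by 0.66 ± 0.14 (edgeR adjusted p = 0.00576).

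Gar1, another core protein of that particle, stood at 64.9, 57.2, 42.5 and 62.4 CPM in obese tumours, against 44.3, 34.0, 35.3 and 30.7 CPM in lean tumours. The lowest obese and the highest lean value overlapped, and the change was 0.65 ± 0.18 (edgeR adjusted p = 0.0140). With upper quartile factors it missed the threshold (edgeR adjusted p = 0.0551). Nop10, the smallest protein of the core (ENSMUSG00000027133, chromosome 2, 112261926 to 112263269), stood at 86.1, 57.8, 80.8 and 76.3 CPM in obese tumours, against 91.2, 90.9, 79.4 and 78.5 CPM in lean tumours. Its groups overlapped, and its change of −0.18 ± 0.14 did not pass (edgeR adjusted p = 0.307). It was the only member with a negative value, and that value became 0.21 with GC and length offsets (edgeR adjusted p = 0.330). Per kilobase of transcript Nop10 was at rank 17 of the 36 members in obese tumours and at rank 4 in lean tumours.

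Ratios between members within a tumour do not depend on a single scaling factor per library, but they do depend on a correction for GC content and length. A set of 15 such ratios in 4 complexes were compared by exact permutation over all 70 ways to place the tumours (two-sided tests, smallest p = 0.0286). The ratios were chosen after the data were seen. The ratio of Dkc1 to Nop10 was 2.21, 2.94, 1.85 and 2.67 in obese replicates 1 to 4, against 0.602, 0.730, 0.591 and 0.543 in lean replicates 1 to 4. Dkc1 thus had more counts than Nop10 in each obese tumour and fewer in each lean tumour. These counts are not scaled for length, and the principal transcripts have 2804 bases for Dkc1 and 1109 for Nop10. Per kilobase Dkc1 was below Nop10 in both groups. The means were 63.6 against 67.9 CPM per kb in obese and 18.8 against 76.6 CPM per kb in lean tumours. On the log2 scale the ratio of Dkc1 to Nop10 differed by 1.96 between obese and lean (exact permutation p = 0.0286, 0.0536 adjusted over the 15 ratios), and by 1.68 with GC and length offsets. The difference for Dkc1 over Gar1 was 1.121, or 0.48 with these offsets, and that for Dkc1 over Nhp2 was 1.1197, or 0.40 with them.

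Ratios of the box C/D genes to each other overlapped between the groups. Nop56 to Fbl ran from 3.02 to 3.58 in obese and from 3.06 to 3.73 in lean tumours (difference of 0.03, exact permutation p = 0.771). Nop58 to Fbl ran from 3.55 to 4.58 in obese and from 2.95 to 5.30 in lean tumours (0.09, exact permutation p = 0.657). With GC and length offsets the differences were −0.07 for Nop56 over Fbl, −0.48 for Nop58 over Fbl and 0.41 for Nop56 over Nop58, for which the difference without offsets was −0.06. The ratio of Gar1 to Nhp2 also overlapped, at 0.244 to 0.349 in obese and 0.264 to 0.330 in lean tumours.

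For RNA polymerase I, the ratio of Polr1a to Polr1b was 2.86, 2.63, 2.03 and 3.25 in obese tumours, against 1.05, 1.13, 1.11 and 1.03 in lean tumours, a difference of 1.30 on the log2 scale (exact permutation p = 0.0286, 0.0536 adjusted), or 1.36 with GC and length offsets. Its 4 lean values were nearly equal. In all, 8 of the 15 ratios did not overlap between the groups and reached the smallest possible p, and none was under 0.05 after adjustment. Of single tested genes, 28.9% lay wholly above and 28.1% wholly below in obese tumours, and the share over all gene pairs was not computed. The ratios share genes and are not independent. Because p cannot go below 0.0286, the adjusted value depends on how many ratios reach that floor and says little of any single ratio.

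**Figure D2:**
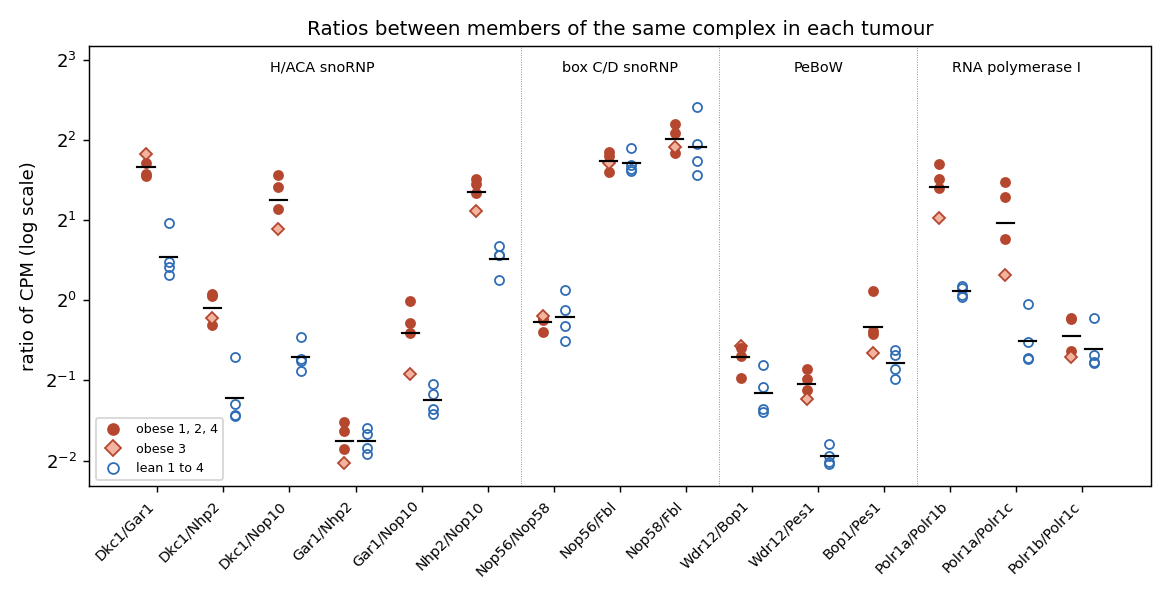
Ratio of CPM between pairs of members of the same complex in each tumour (log scale), obese tumours filled and left, lean tumours open and right, with bars at the mean of the log ratios. Dkc1 over Nop10 lies at 1.85 to 2.94 in obese and 0.543 to 0.730 in lean tumours, while Nop56 over Fbl lies between 3.02 and 3.73 in both groups.

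All 11 genes of small subunit assembly rose, with a median log2 change of 1.47 and no overlap between the groups. Wdr43, a protein of the processome that cuts the precursor RNA (ENSMUSG00000041057, chromosome 17, 71615895 to 71659031), stood at 279.7, 280.2, 216 and 289.8 CPM in obese tumours, against 76.2, 83.6, 72.6 and 66.5 CPM in lean tumours. It rose by 1.83 ± 0.13 and had the smallest adjusted p of the members (edgeR adjusted p = 0.000159). The other processome members Wdr75, Utp4, Utp15, Utp20, Heatr1 and Nop14 changed by 1.47 ± 0.19, 1.55 ± 0.16, 1.43 ± 0.14, 1.63 ± 0.25, 1.67 ± 0.17 and 1.08 ± 0.13. Utp20 stood at 151, 137, 77.9 and 136 CPM in obese tumours, against 43.6, 52.3, 32.3 and 33.6 CPM in lean tumours. Obese replicate 3 lay between the other obese tumours and the lean tumours for Utp20.

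Rrp12, which acts in maturation and export of the subunits, stood at 90.5, 97.8, 46.8 and 85.1 CPM in obese tumours, against 22.2, 24.8, 17.96 and 18.6 CPM in lean tumours. Its change of 1.94 ± 0.24 (edgeR adjusted p = 0.000682) was the largest of this role. Rrp9, a snoRNP protein of the processome, stood at 123, 63.3, 60.7 and 63.9 CPM in obese tumours, against 40.5, 20.8, 35.2 and 35.98 CPM in lean tumours. Obese replicate 1 was nearly 2 times as high as the other obese tumours, and the change was 1.23 ± 0.30 (edgeR adjusted p = 0.00942). Tsr1 and Bysl, which act in late steps, changed by 1.28 ± 0.13 and 0.91 ± 0.14.

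All 8 genes of large subunit assembly rose without overlap, from a log2 change of 0.41 to one of 2.39. Nop2, an RNA methyltransferase of the large subunit (ENSMUSG00000038279, chromosome 6, 125131909 to 125144753), stood at 383, 362, 244 and 414 CPM in obese tumours, against 82.5, 64.9, 57.5 and 62.0 CPM in lean tumours. Its change of 2.39 ± 0.20, a 5.26-fold rise, was the largest of the members (edgeR adjusted p = 0.000200). Rrp1b stood at 124, 130.3, 80.1 and 134 CPM in obese tumours, against 26.8, 29.4, 25.1 and 24.8 CPM in lean tumours (2.14 ± 0.18, edgeR adjusted p = 0.000205). Both were lowest in replicate 3 among the obese tumours.

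The proteins of Pes1, Bop1 and Wdr12 form the PeBoW complex, and RNA of all 3 rose. Wdr12 stood at 122, 88.9, 93.0 and 104 CPM in obese tumours, against 45.01, 45.8, 36.9 and 35.9 CPM in lean tumours (1.32 ± 0.15). Pes1 stood at 219.9, 193, 218 and 205 CPM in obese tumours, against 173, 159, 149 and 148 CPM in lean tumours. Its rise of 0.41 ± 0.10 was the smallest that passed (edgeR adjusted p = 0.00929). It missed the threshold with upper quartile factors (edgeR adjusted p = 0.125) and with library size only (edgeR adjusted p = 0.0871).

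Bop1 stood at 169 ± 46.6 CPM in obese and 91.1 ± 7.36 CPM in lean tumours (0.89 ± 0.19), with 238 CPM in obese replicate 1 and at most 157 CPM in the others. The ratio of Wdr12 to Pes1 was 0.426 to 0.554 in obese and 0.242 to 0.289 in lean tumours, a log2 difference of 0.90 (exact permutation p = 0.0286, 0.0536 adjusted). With GC and length offsets that difference was 0.41, and the order of the 3 changes was another, with 1.60 for Bop1, 1.32 for Wdr12 and 0.91 for Pes1. Rrs1 (1.16 ± 0.14), Mrto4 (1.08 ± 0.15) and Nop16 (0.80 ± 0.16), further assembly factors of the large subunit, also rose. Rrs1 averaged 111 ± 16.8 CPM in obese and 49.4 ± 4.79 CPM in lean tumours.

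Promoter sequences were looked at because nearly all members moved together and Myc RNA moved with them. RefSeq promoters (GRCm38.p6, 250 bases before to 50 bases after the start site) were at hand for 31 members, and Fbl, Npm1, Bop1, Rrs1 and Rrp12 were not in that table. The motif searched was CACGTG, the E-box bound by MYC and MAX, which reads the same on both strands. It stood in the promoter of 7 of 31 members (22.6%), namely Nop2, Pes1, Rrn3, Tsr1, Utp20, Utp4 and Wdr43, beside 11.25% of 11440 tested genes with a promoter there. A second motif, CCGGAAGT or its reverse complement ACTTCCGG, the site of ETS factors, also stood in 7 of 31 members, beside 8.29% of tested genes. Promoters are printed for Nop2 (chr6:125131633-125131932, plus strand), the largest rise, for Wdr43 (chr17:71615965-71616264, plus strand), the smallest adjusted p, and for Rrn3 (chr16:13780449-13780748, plus strand), the member with 2 E-boxes that did not pass. That of Nop10 (chr2:112261676-112261975, plus strand), the only member with a negative change, holds no match. Neither do the promoters of Polr1a, Ddx21 and Rrp1b, whose rises were the largest after that of Nop2. Pes1, the smallest rise that passed, has a match. Among members called higher the motif stood in 6 of 29 (20.7%). Whether it goes with the change, or is more frequent in members than in tested genes, was not tested. Capitals mark CACGTG, which starts 60 bases before the start site in Nop2 and at base 18 after it in Wdr43.
Nop2: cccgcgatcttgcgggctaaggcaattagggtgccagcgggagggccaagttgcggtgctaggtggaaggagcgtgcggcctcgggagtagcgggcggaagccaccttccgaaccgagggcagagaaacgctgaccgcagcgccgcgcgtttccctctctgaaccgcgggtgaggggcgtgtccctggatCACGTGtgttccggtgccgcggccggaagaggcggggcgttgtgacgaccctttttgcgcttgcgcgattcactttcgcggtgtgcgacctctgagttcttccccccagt
Wdr43: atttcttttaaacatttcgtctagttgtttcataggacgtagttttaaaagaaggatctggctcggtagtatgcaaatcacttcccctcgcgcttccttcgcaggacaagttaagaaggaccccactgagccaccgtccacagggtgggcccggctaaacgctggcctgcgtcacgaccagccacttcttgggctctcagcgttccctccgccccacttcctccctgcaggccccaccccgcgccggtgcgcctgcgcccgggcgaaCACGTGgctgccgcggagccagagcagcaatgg
Rrn3: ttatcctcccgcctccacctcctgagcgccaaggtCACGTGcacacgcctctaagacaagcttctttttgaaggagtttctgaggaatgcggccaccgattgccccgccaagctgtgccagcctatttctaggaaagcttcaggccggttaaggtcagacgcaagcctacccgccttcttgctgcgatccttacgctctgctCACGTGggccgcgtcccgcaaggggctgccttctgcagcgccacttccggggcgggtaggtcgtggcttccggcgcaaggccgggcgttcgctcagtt
Nop10: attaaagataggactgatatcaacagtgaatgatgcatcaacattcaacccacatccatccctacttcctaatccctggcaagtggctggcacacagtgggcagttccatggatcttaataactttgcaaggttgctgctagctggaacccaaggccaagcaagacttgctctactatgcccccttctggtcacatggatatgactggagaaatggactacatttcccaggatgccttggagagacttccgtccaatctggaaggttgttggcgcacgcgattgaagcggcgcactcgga

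Myc, the gene of the transcription factor known to bind such E-boxes, stood at 577, 746, 336 and 625 CPM in obese tumours, against 103, 91.4, 88.3 and 77.1 CPM in lean tumours. It rose by 2.67 ± 0.25 (edgeR adjusted p = 0.000269), and the groups did not overlap. Obese replicate 3, the lowest obese tumour for 29 of the 36 members, was also the lowest for Myc. Obese replicate 2 had the highest Myc level but was the highest obese tumour for 5 members and the lowest for 6. Lean replicate 2, the highest lean tumour for 18 members, was below lean replicate 1 for Myc. Its relatives went the other way at low levels. Mycl fell by 3.48 on the log2 scale, to 1.23 ± 0.634 CPM in obese against 13.9 ± 13.5 CPM in lean tumours (edgeR adjusted p = 0.00781). Mycn fell by 3.19, to 0.0736 ± 0.0510 CPM in obese against 0.740 ± 0.585 CPM in lean tumours (edgeR adjusted p = 0.0111). The obese Mycn values of 0, 0.0824, 0.116 and 0.0960 CPM were near the 0.0494 to 0.124 CPM that a count of 0 allows. Of 14 genes of the MYC family and its partners, 5 rose and 5 fell, beside 30.9% of all tested genes higher and 28.4% lower. Genes whose products compete with MYC for MAX did not move one way. Mxi1 (2.28 ± 0.25), Mnt (1.63 ± 0.30) and Mxd1 (1.58 ± 0.56) rose. Mxd4 fell by 2.54, to 20.2 ± 16.3 CPM in obese against 118 ± 19.8 CPM in lean tumours (edgeR adjusted p = 0.00567), and Mxd3, at −0.60 ± 0.25, did not pass (edgeR adjusted p = 0.0643). The 3 Mxd genes were named after their values were seen.

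Further genes of the pathway moved in the same direction, though less uniformly. Of 115 tested genes in 4 lists of other ribosome biogenesis genes, 84 rose and 4 fell, with a median log2 change of 0.89, beside 30.9% of all tested genes higher. Without obese replicate 3, 85 rose and 5 fell. By list, 33 of 46 small subunit genes rose and 3 fell, 39 of 49 large subunit genes rose and 0 fell, and 8 of 10 snoRNP assembly genes rose and 1 fell. Among other genes of RNA polymerase I and its factors, 4 of 10 rose and 0 fell, with a median of 0.33.

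Within these lists, Naf1, a chaperone that brings dyskerin to nascent H/ACA RNA, stood at 63.8 ± 14.7 CPM in obese and 11.2 ± 2.83 CPM in lean tumours (2.505 ± 0.24, edgeR adjusted p = 0.000287). Nmd3, the export adaptor of the large subunit, stood at 161 ± 8.06 CPM in obese and 47.3 ± 6.97 CPM in lean tumours (1.77 ± 0.13). Utp11, a processome protein, stood at 121 ± 9.63 CPM in obese and 39.4 ± 3.97 CPM in lean tumours (1.62 ± 0.12). Twistnb, a stalk subunit of RNA polymerase I, rose by 1.48 ± 0.24. The genes that fell were Pih1d1, part of the assembly machinery of box C/D snoRNPs (−0.79 ± 0.21), Tsr2 (−0.78 ± 0.16), Bud23 (−0.34) and Nol6 (−0.32), and all 4 were named after their values were seen.

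The ribosomal proteins themselves, which these factors assemble, changed by smaller amounts. Of 79 cytosolic ribosomal protein genes 35 (44.3%) rose and 3 fell, beside 30.9% of all tested genes higher and 28.4% lower. The median log2 change of these 79 genes was 0.35. Their summed level was 42083 to 46258 CPM in obese and 25858 to 34847 CPM in lean tumours. Whether members and ribosomal protein genes differ as groups was not tested.

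**Figure D3:**
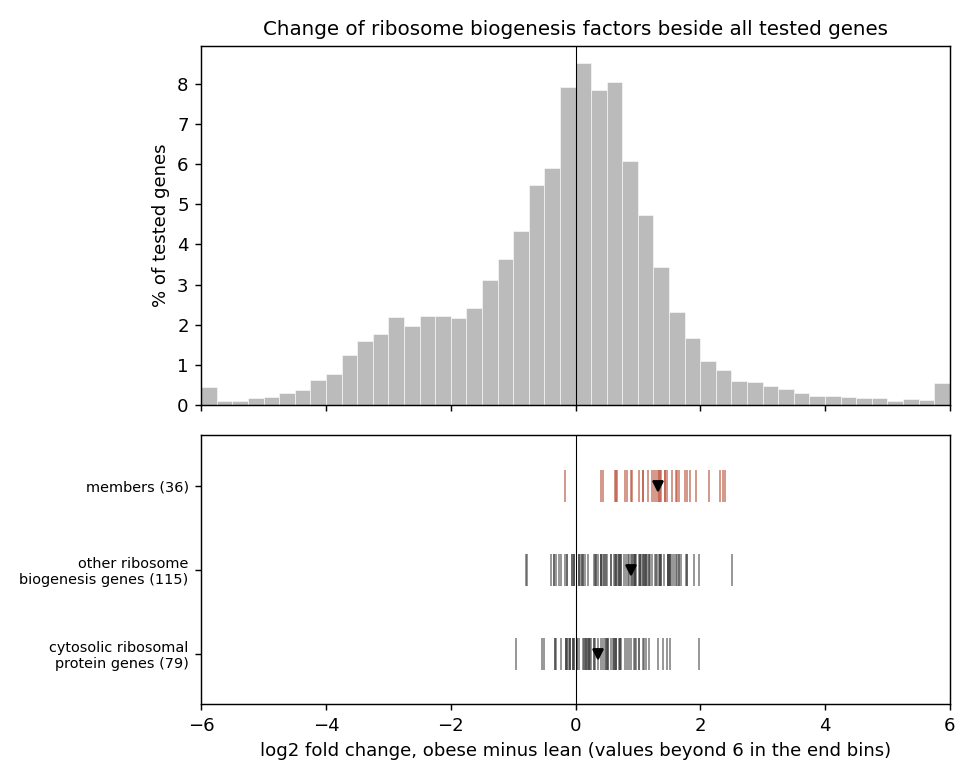
Above, the share of all 14887 tested genes by log2 fold change, obese minus lean, in bins of 0.25. Below, a tick for each of the 36 members, 115 other ribosome biogenesis genes and 79 cytosolic ribosomal protein genes, with triangles at their medians of 1.33, 0.89 and 0.35.

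Genes of cell division moved with the members in most cases. Of 26 such genes 23 rose and 2 fell, beside 30.9% of all tested genes higher and 28.4% lower. The summed level of these 26 genes was 3702 to 5162 CPM in obese and 1535 to 2989 CPM in lean tumours. The proliferation marker Mki67 did not pass, at 70.0, 119, 86.3 and 149.9 CPM in obese tumours, against 124.5, 268, 130.4 and 104 CPM in lean tumours (log2 change −0.56 ± 0.35, edgeR adjusted p = 0.192). Lean replicate 2, the highest lean tumour for 18 of 36 members, was also the highest lean tumour for the summed cell division genes.

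Summed levels of epithelial, T cell and B cell markers were lower in each obese than in each lean tumour, while those of the other cell types overlapped. For comparison, 30.9% of all tested genes were higher and 28.4% lower. Of 12 mammary epithelial markers 6 fell and 0 rose. All 12 were lower in each obese than in each lean tumour, beside 28.1% of tested genes. Without obese replicate 3 all 12 fell, beside 33.6% of tested genes lower. All 8 tested T cell markers fell, with a summed level of 25.96 to 84.2 CPM in obese and 106 to 274 CPM in lean tumours, and 7 of 8 B cell markers fell, with 4.81 to 11.3 CPM in obese and 30.9 to 66.8 CPM in lean tumours. Macrophage markers summed to 1887 to 2464 CPM in obese and 1402 to 3987 CPM in lean tumours, with 4 of 10 higher and 1 lower. Fibroblast markers summed to 1270 to 5267 CPM in obese and 1267 to 1677 CPM in lean tumours, with 3 of 10 higher and 4 lower.

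Endothelial markers fell in 4 of 8 cases and adipocyte markers in 1 of 8. Their summed levels were 131 to 195 CPM and 102 to 551 CPM in obese tumours, against 153 to 340.2 CPM and 256 to 598 CPM in lean tumours. Skeletal muscle markers had no call in 8 and summed to 5.66 to 211 CPM in obese and 23.5 to 1428 CPM in lean tumours. Of 8 matched rRNA and RNA quality genes, 4 were at 0 counts and the 4 tested had an edgeR adjusted p of 0.112 to 0.958. Their summed levels were 326 to 996 CPM in obese and 229.9 to 383 CPM in lean tumours. The part of these cell types, of cell division and of Myc in the members' rise was not tested.

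**Figure D4:**
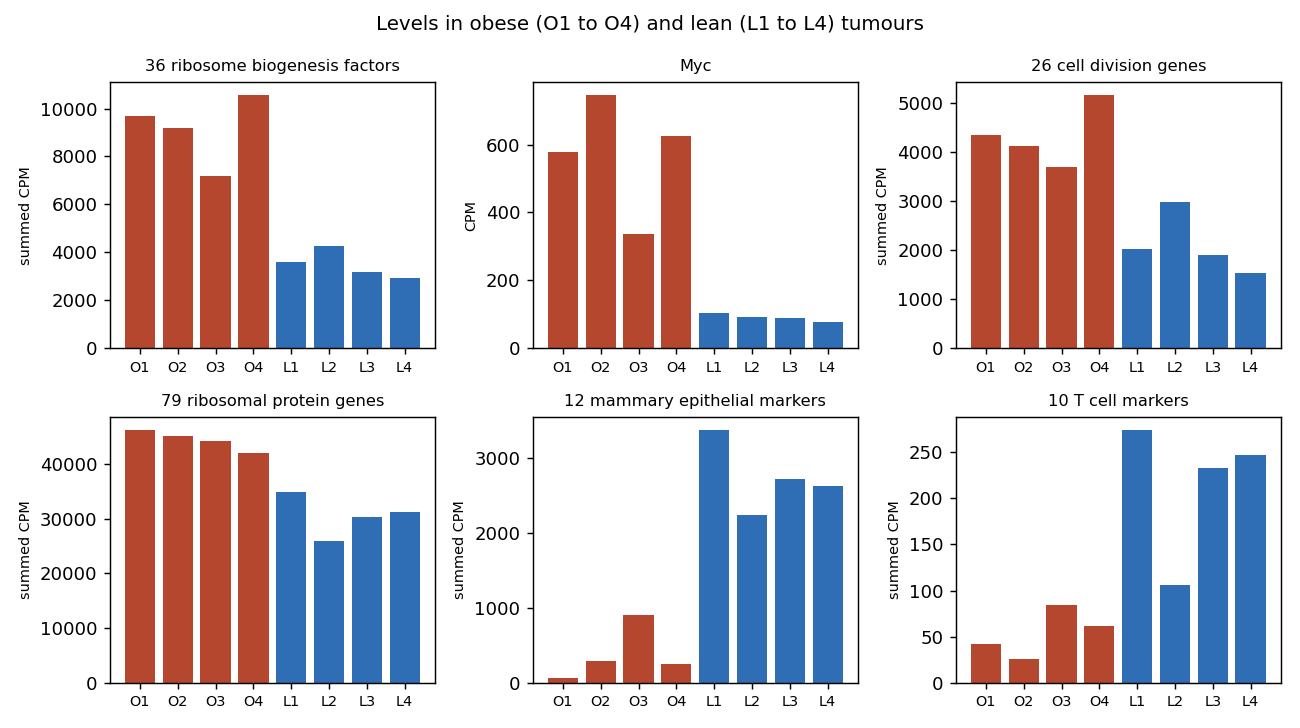
Summed CPM of gene lists, and CPM of Myc, in each tumour, with obese tumours (O1 to O4) left and lean tumours (L1 to L4) right and bars starting at 0. The members sum to 7192 to 10568 CPM in obese and 2930 to 4245 CPM in lean tumours, and epithelial and T cell markers are lower in each obese tumour than in each lean tumour.

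The members did not vary evenly between tumours of a group. Obese replicate 3 was the lowest obese tumour for 29 of 36 members, with a median log2 distance of −0.37 from the mean of the other 3. The highest obese tumour was replicate 1 for 17 members, replicate 4 for 14 and replicate 2 for 5. Among lean tumours, replicate 2 was the highest for 18 members and the lowest for 5, and replicate 1 was the highest for 17. Across the 36 members, which share these libraries, the log2 distance of lean replicate 2 from the other lean tumours had a Pearson correlation of −0.77 with the GC content of the transcripts. That tumour was thus high for several members with low GC content, such as Ncl, Npm1, Nop58 and Wdr75, and low for Rrp9 and Bop1. These examples were picked after their values were seen. Other members with low GC content lay nearer to the other lean tumours, with log2 distances of 0.23 for Wdr12, 0.22 for Wdr43 and 0.06 for Utp15. The SD of log2 levels was 0.23 in obese and 0.20 in lean tumours (medians over members).

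Longer members tended to have larger changes. The Pearson correlation of the log2 change with log2 exon length was 0.52 over the 36 members and 0.08 over the 14759 tested genes with both values, and that with GC content was −0.17 over the members and −0.16 over these genes. These are correlations across genes, which are not independent replicates. With GC and length offsets, 35 members were higher and 0 lower, with a median of 1.60, but all tested genes also shifted, to a median of 0.31 with 40.5% higher and 21.1% lower, against 30.9% higher and 28.4% lower without offsets. Nhp2 changed by 1.496 and Gar1 by 1.41 with these offsets, and Nop10 by 0.21.

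The loci of the members hold further genes, whose effect on the members' counts was not tested. Within 7 members, namely Ncl, Gnl3, Nop56, Nop58, Dkc1, Wdr43 and Tsr1, lie 21 annotated snoRNA genes on the same strand, and 12 of these had any count, 655 in all 8 tumours together (370 in obese and 285 in lean). Only Snord69 in Gnl3 and Snord53 in Wdr43 passed the low-count filter, and neither passed the test (edgeR adjusted p = 0.641 and 0.627). These libraries therefore show the host genes and say little of the snoRNAs. Protein-coding genes overlap 12 members on the opposite strand. The strand setting of the counting is not given in the sources used here, so reads of overlapping partners such as Dkc1 and Mpp1 (1.76) or Rrp9 and Parp3 (1.58) cannot be told apart in the overlap, if counted without strand. The members lie on 18 chromosomes, 5 of them on chromosome 1, where Nop58 and Wdr12 are 351 kb apart.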

How the data were processed

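RNA was measured in 8 frozen tumours, 4 obese and 4 lean. Per the labels' protocols the library kit was TruSeq, of the stranded kind. The deposited table holds raw read counts per Ensembl mouse gene, 1 column per tumour. The submitters' processing notes name mm10 as the build, and as tools STAR 2.5.2b, HTSeq, cutadapt 1.12, CASAVA 1.8 and bcl2fastq 2.18.0.12. Annotation, strand setting and read filters are not given in the sources used here.

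The 36 members, the role groups and all gene lists were chosen with earlier results of these data known. Every member is named. From each further list at most the 3 genes with the smallest p were named, and always Myc, Mycn, Mycl and Mki67, and exceptions are marked as chosen after their values were seen. Of the 117 further pathway genes 116 matched an ID. GENCODE M21, on the GRCm38 assembly, gave symbols and coordinates.

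Genes were kept by filterByExpr (minimum count 10, minimum total 15), which left 14887. After TMM scaling, edgeR's robust quasi-likelihood test (two-sided) was run, and p-values were adjusted (Benjamini-Hochberg) across these genes with a threshold of 0.05. Each SE is the log2 change divided by the root of its F statistic. A count of 0 allows up to 3 counts, or 0.0494 to 0.124 CPM per library (counting error only). Levels per kilobase used the principal transcript. Pseudogenes were found with BLAST 2.17.0 (at least 300 bases, 85% identity). No batch, date or pairing is labelled, so replicate numbers only name tumours. Steps were tested on simulated data. Alternatives were other scalings, filters and tests (limma-voom, DESeq2), 1 surrogate variable, GC and length offsets, and leaving out tumours. Leaving out obese replicate 3 and lean replicate 2 together, and ratios with GC and length offsets, were added after the data were seen. Software was edgeR 4.0.16, DESeq2 1.42.0, limma 3.58.1 and sva 3.50.0 in R 4.3.3, with SciPy 1.17.1 for exact tests.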

Additional observations from a re-analysis of the deposited data

Results flagged for a closer look

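In 7 of 72 sets of 4 tumours (36 members in each group) 1 tumour stood apart from the other 3 by Dixon's criterion. For independent sets chance alone gives about 1 in 20, or 3.6 of 72. These sets share the same libraries and are not independent, so the difference between 7 and 3.6 was not tested. Obese replicate 3 was low for Ddx21 (347 CPM, others 543 to 582), for Wdr43 (216 CPM, others 279.7 to 289.8) and for Rrs1 (85.5 CPM, others 118 to 119.6). Obese replicate 1 was high for Rrp9 (123 CPM, others 60.7 to 63.9), and obese replicate 2 was high for Polr1c (129.5 CPM, others 109 to 111). Lean replicate 2 was high for Utp4 (77.4 CPM, others 57.1 to 58.9) and lean replicate 1 for Mrto4 (43.0 CPM, others 32.7 to 33.7).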

How the results depend on the processing

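Over the 19 alternatives, 32 to 35 members were higher and 0 lower, beside 24.3% to 40.5% of tested genes higher. The members' median was 1.117 under upper quartile scaling, 1.14 when only library size was used and 1.60 with GC and length offsets, where the median of all tested genes shifted by −0.21, −0.19 and 0.35 (−0.11 with no filter). Relative to all genes it was 1.37, 1.36 and 1.29, against 1.37 in the fit with TMM factors. Leaving out each tumour gave 1.28 to 1.39. Of single members, Gar1 and Pes1 lost their call in the settings named above, and Rrn3 passed with GC and length offsets (edgeR adjusted p = 0.0306), with quality weights (limma adjusted p = 0.00162), without lean replicate 2, and without obese replicate 3 and lean replicate 2 together (edgeR adjusted p = 0.00252). Nop10 turned to 0.21 with GC and length offsets, which also turned the ratio of Wdr12 to Bop1 (−0.29, without offsets 0.45) and that of Polr1b to Polr1c (−0.14, without offsets 0.17). Of the 684 single values, 676 kept direction and side of the threshold. Other pathway genes called lower numbered 1 with GC and length offsets, 7 with library size only, 8 with upper quartile factors, 10 with limma-voom and quality weights, and 2 to 5 leaving out each tumour; those higher numbered 72 to 102. No paired analysis was possible because the labels give the tumours no shared numbers. The cause of these shifts was not tested.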
